A study of Homo sapiens with 6 samples.

Results

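The subject is a set of 1615 genomic regions in which wild-type MCF-10A cells had 2 or more called ATAC-seq peaks and cells with PIK3CA E545K had exactly 1. To find them, peaks of 3 lists were merged wherever they touched or overlapped. This gave 120615 regions, of which 76403 held peaks of both wild-type (WT) and E545K cells. The 1615 regions were 1.34% of all regions and 2.11% (95% Wilson interval 2.01 to 2.22) of those with both. The regions were chosen by the number of called peaks in the WT and E545K lists, so their widths, areas and summits in those lists are given as description.

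MCF-10A is an established, non-tumorigenic human breast epithelial line. The parental line with wild-type PIK3CA was set beside knock-in lines with PIK3CA E545K or H1047R, with 2 samples per genotype, 6 in all, and 1 pooled peak list per genotype. WT cells were maintained with EGF at 20 ng/ml and both knock-in lines without EGF, so genotype and maintenance medium cannot be told apart. For the last 24 h all groups were held in assay medium in which serum was stripped and cut to 1% and EGF was 0.2 ng/ml, along with insulin, hydrocortisone and cholera toxin. The labels do not say how many clones stand behind each knock-in line. The pooled lists hold no values per sample and no read counts. Depth is therefore unknown, no test across samples could be made, and each interval below covers counting error only.

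ATAC-seq uses the transposase Tn5 to cut DNA that is not wrapped in nucleosomes or otherwise protected, and a peak caller turns runs of dense cuts into intervals. Active promoters and enhancers often form clusters of open sites with nucleosomes between them, and broad clusters are common near genes that are highly active in a cell type. A cell population shows the average of its cells, so more signal per cell and more cells with signal cannot be told apart. Whether a caller draws such a cluster as several peaks or as a single wide peak depends on the signal between the sites. E545K lies in the helical domain and H1047R in the kinase domain of the catalytic subunit of PI3K, the kinase that makes the membrane lipid which recruits AKT.

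The lists held 98910 WT, 89416 E545K and 106747 H1047R peaks on the 22 autosomes, and the median widths were 466, 539 and 466 bp. Neighbouring peaks were over 100 bp apart in each list, and the smallest peak area was 200. Of 13 epithelial markers, 12 had a peak at the promoter in each list, with TP63 as the exception. Of 8 immune markers CD14 was open in each list and SPI1 in E545K alone. Of 4 fibroblast markers COL1A1 and COL1A2 were open in each list. Of 4 endothelial markers KDR was open in each list and CDH5 in WT alone, and of 4 neural markers SYT1 was open in each list and SNAP25 in WT and H1047R. CDKN2A, a locus known to be lost from MCF-10A, carried 0 peaks in each list.

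The sequences below come from 5 of the 6 genes with the most such regions, and they show both sides of a join. For each gene they give the WT gap that the E545K peak crossed and the 61 bp centred on the E545K summit, read from hg38 on the plus strand. Capitals mark matches to any of the 10 motifs searched on both strands. AP-1 was searched as TGANTCA, the cyclic AMP element as TGACGTCA and the GC box as GGGCGGGG. The TEAD motif was searched with the letters ACATTCC. For ETS factors these were CCGGAAG, and for RUNX factors the search used TGTGGTT. The forkhead letters were TGTTTAC and those of GATA factors were AGATAAG. NF-kB and the CTCF core were the remaining motifs.
EZR WT gap, chr6:158813618-158813802: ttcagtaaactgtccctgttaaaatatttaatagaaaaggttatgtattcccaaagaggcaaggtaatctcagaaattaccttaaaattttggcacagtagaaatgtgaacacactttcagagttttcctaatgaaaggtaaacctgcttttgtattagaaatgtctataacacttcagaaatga
EZR E545K summit, chr6:158818278-158818338: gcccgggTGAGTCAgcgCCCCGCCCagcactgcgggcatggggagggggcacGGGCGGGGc
ANXA2 WT gap, chr15:60374092-60374246: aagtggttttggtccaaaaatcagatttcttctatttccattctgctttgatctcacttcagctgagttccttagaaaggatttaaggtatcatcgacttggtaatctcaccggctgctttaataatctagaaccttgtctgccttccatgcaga
ANXA2 E545K summit, chr15:60374863-60374923: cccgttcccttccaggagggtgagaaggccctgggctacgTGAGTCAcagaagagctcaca
EMP1 WT gap, chr12:13198553-13198702: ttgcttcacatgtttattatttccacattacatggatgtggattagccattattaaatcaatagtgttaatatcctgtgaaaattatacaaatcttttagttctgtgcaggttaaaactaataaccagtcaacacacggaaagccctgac
EMP1 E545K summit, chr12:13203656-13203716: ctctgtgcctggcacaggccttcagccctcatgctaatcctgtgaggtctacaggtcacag
ITGB6 WT gap, chr2:160227600-160227702: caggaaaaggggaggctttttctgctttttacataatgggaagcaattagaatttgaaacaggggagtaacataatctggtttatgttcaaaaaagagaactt
ITGB6 E545K summit, chr2:160228213-160228273: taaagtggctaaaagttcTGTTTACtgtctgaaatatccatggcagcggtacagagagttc
HS6ST1 WT gap, chr2:128322184-128322284: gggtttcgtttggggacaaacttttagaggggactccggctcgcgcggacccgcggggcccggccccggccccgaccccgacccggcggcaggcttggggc
HS6ST1 E545K summit, chr2:128321897-128321957: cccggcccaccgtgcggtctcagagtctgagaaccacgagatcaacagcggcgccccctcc
None of the 5 gaps held a match. An H1047R peak also crossed the ITGB6 and HS6ST1 gaps. The EZR, ANXA2 and EMP1 sequences lie in introns of those genes, and the ITGB6 and HS6ST1 sequences between protein-coding genes. The EZR summit window held an AP-1 match and GC boxes. The ANXA2 summit held an AP-1 match and the ITGB6 summit a forkhead match. A match is a description of letters and not of binding.

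At the chosen regions the E545K peak usually ran over WT peaks and the space between them without a new summit. Its median width was 2023 bp (quartiles 1302 to 3128), against 1694 bp covered by WT peaks (1044 to 2535) within a WT span of 1935 bp (1278 to 2837). The regions held 2 WT peaks in 1507 cases (93.3%), 3 in 86, 4 in 14, 5 in 5 and 6 in 3. The widest WT gap was narrow in most of them, with a median of 153 bp (117 to 288). The E545K summit lay in the WT peak with the highest WT summit in 1445 regions (89.5%), in another WT peak in 166, in the gap in 1 and outside the WT peaks in 3. It was a median of 5 bp from the nearest WT summit (quartiles 0 to 23) and within 100 bp of one in 92.5%.

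In 141 regions (8.73%) the E545K peak overlapped only 1 of the WT peaks. In all 141 an H1047R peak crossed a WT gap and so tied the region together. The E545K peak itself overlapped 2 or more WT peaks in the other 1474 (91.3%, 89.8 to 92.6). It reached past the outer WT edges on both sides in 699 regions and on 1 side in 603.

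Of the WT peaks in a region, which differ in rank by definition, the strongest stood at a median percentile of 80.9 of the WT list by area, and the weakest at 32.5. The weakest had a median area of 419.8, a width of 492 bp and a summit value of 3.41, and its area was under 400 in 761 regions (47.1%). Area is the value the authors' caller gave for the significance curve summed along the peak, which grows with width, and the summit value is its −log10 p at the summit. Both belong to a peak within its list, and values of different lists are set side by side without a claim of change. Within the E545K list the peaks stood at a median percentile of 89.5 by area (median 3048) and 80.6 by summit (median 6.01). The highest WT summit had a median of 6.15, and the E545K value was the larger in 558 regions (34.6%, beside 21.7% of all regions with both peaks). H1047R peaks in these regions had a median highest summit of 6.37.

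The E545K peak covered more bases than the WT peaks in 1367 regions (84.6%), which the rule favours. It covered at least 1.5 times as many in 260 (16.1%, beside 8.74% of all regions with both), and the WT peaks covered at least 1.5 times as many as E545K in 79 (4.89%, beside 7.01%). The median ratio was 1.17 here and 0.995 over all regions with both. The plot of widths shows points on both sides of the diagonal, with most above it.

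**Figure D1:**
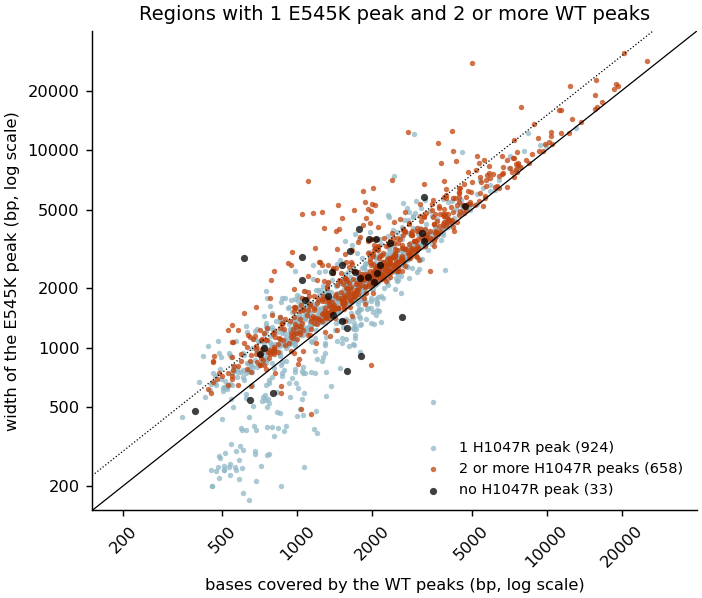
Width of the E545K peak (bp, log scale) against the bases covered by WT peaks (bp, log scale), 1 point per region for the 1615 regions, coloured by the number of H1047R peaks. The solid line marks equality and the dotted line 1.5 times the WT bases; 260 regions lie on or above the dotted line and 79 lie as far below the solid line.

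Regions on either side of the rule's threshold are given here for width, with no test. Regions with 1 WT and 1 E545K peak, just outside the rule, numbered 72959 and had a median of 543 bp of WT and 546 bp of E545K peak. The 1507 with 2 WT peaks had medians of 1617 and 1895 bp, and the 108 with 3 or more had 4159 and 5552 bp. The 722 regions with 2 or more peaks in each list, which the rule also leaves out, had 1678 and 1784 bp.

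The reverse pattern, 1 WT peak and 2 or more E545K peaks in a merged region, was found in 1107 regions. The WT peak itself overlapped 2 or more E545K peaks in 946 of them, beside 1474 for the E545K peak in the set. Of the 2361 regions with 2 or more WT peaks, 68.4% had exactly 1 E545K peak and 64.9% exactly 1 H1047R peak. Regions with 1 H1047R peak and 2 or more WT peaks numbered 1532, and those with 1 WT peak and 2 or more H1047R peaks 1215. These are counts by merged region, in which a peak of the third list can be the bridge. Among the 924 members with 1 H1047R peak, that peak covered no WT gap whole in 100. The lists differ in length, and with each cut to its strongest 89416 peaks the E545K count was 1349 and the reverse 1152. Both knock-in comparisons use the same WT list. Peaks of the WT list never touch each other, so a region can hold 2 or more WT peaks only where a knock-in peak bridges them, and the shares of the 2361 regions are high by construction. The counts of 1615 and 1532 have no replicate spread against which to set them.

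Counted over all gaps between WT peaks, E545K and H1047R peaks crossed short gaps at like rates, and E545K crossed more of those between 500 and 2000 bp. Taking all neighbouring WT peaks up to 1000 bp apart, a single E545K peak crossed 1712 of 10996 gaps (15.6%, 14.9 to 16.3) and a single H1047R peak 1628 (14.8%, 14.2 to 15.5). WT peaks crossed 9.90% of E545K gaps (9.36 to 10.5) and 9.70% of H1047R gaps. For gaps up to 150 bp the E545K and H1047R shares were 39.3% and 40.3%. Over 500 and up to 1000 bp they were 3.62% (3.10 to 4.21) and 2.10% (1.72 to 2.57), and over 1000 and up to 2000 bp 0.985% (0.783 to 1.24) and 0.301% (0.199 to 0.455). Over 2000 and up to 5000 bp each crossed 17 of 14862 gaps (0.114%). In the opposite direction WT peaks crossed 0.841% of E545K gaps over 500 and up to 1000 bp and 0.0599% of those over 1000 and up to 2000 bp. Long gaps, over 500 and up to 2000 bp, were crossed by E545K in 232 of 11734 cases (1.98%), by H1047R in 115 (0.980%) and by WT over E545K gaps in 41 of 11077 (0.370%). That range was chosen after the values were seen, and the order was the same under the 4 other settings tried for it. For gaps up to 1000 bp the order of E545K and H1047R turned when peaks needed a summit value of 3, with 14.2% and 14.9%.

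**Figure D2:**
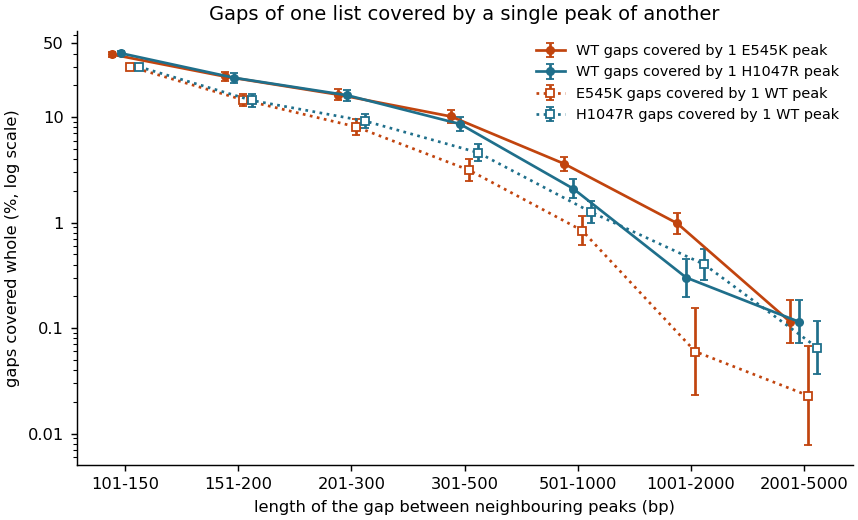
Share of gaps between neighbouring peaks of a list (%, log scale) that a single peak of another list covered whole, by gap length (bp), with 95% Wilson intervals. The E545K and H1047R points over WT gaps lie together up to 150 bp (39.3% and 40.3%) and apart between 1000 and 2000 bp (0.985% and 0.301%).

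H1047R peaks are not counted by the rule but take part in the merge, which partly sets their number here. H1047R showed a single peak in 924 of the 1615 regions (57.2%, 54.8 to 59.6), 2 or more in 658 (40.7%, beside 33.4% of all regions with 2 or more WT peaks) and none in 33. Among the 1474 regions whose E545K peak itself overlapped 2 or more WT peaks, the share with a single H1047R peak was 53.3%. In the 1107 reverse regions a single H1047R peak stood in 61.6% (58.7 to 64.4) and 2 or more in 35.7%. Of the 1756 WT gaps in the set, the E545K peak covered 1611, and of those a single H1047R peak covered 48.2% (45.7 to 50.6). That share was 60.4% for gaps up to 150 bp, 39.6% over 300 and up to 500 bp and 18.8% (13.3 to 25.8) over 500 and up to 1000 bp. Of the 86 covered gaps over 1000 bp, H1047R covered 5. H1047R bases reached 1.5 times the WT bases in 132 of 1582 regions with an H1047R peak (8.34%, beside 9.27% of all regions with both), and WT bases reached 1.5 times the H1047R bases in 126 (7.96%, beside 5.85%).

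The H1047R state went with width and strength. Where H1047R had 1 peak, the median E545K width was 1748 bp and the median widest gap 135 bp. With 2 or more H1047R peaks these were 2532 and 202 bp. The 33 regions without an H1047R peak were wide and weak, with a median width of 2286 bp and a median E545K summit value of 3.13 against 5.96 where H1047R had 1 peak. Only 2 of the 33 lay at a promoter.

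GPRC5A, an orphan receptor induced by retinoic acid, held the longest crossed gap. Between 12896161 and 12923882 on chromosome 12, with a midpoint 18460 bp downstream of the start, WT had 5 peaks of 1039, 1422, 861, 954 and 744 bp with summits of 4.30, 7.37, 4.21, 3.60 and 2.99. H1047R had 7 peaks covering 11753 bp. E545K had 1 peak of 27722 bp with a summit of 7.15 at the position of the highest WT summit. The E545K peak covered 5.52 times the WT bases and crossed a WT gap of 11045 bp, in which H1047R had a peak of 781 bp. In the surrounding window of 35722 bp the lists covered 21.2% (WT), 98.1% (E545K) and 47.7% (H1047R).

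ELF3, an epithelial ETS factor, was similar on a smaller scale. WT had peaks of 1285, 1550 and 1327 bp (4162 bp in all) on chromosome 1 between 202007646 and 202019461, around a gap of 7368 bp that holds most of the gene. E545K had 1 peak of 12523 bp and H1047R 4 peaks of 7071 bp. The E545K summit, 10.8, lay at 202010564, within the second WT peak and not at the highest WT summit (9.27, at 202008337). H1047R had its highest summit, 9.68, at 202010564, the base of the E545K summit.

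EZR codes for ezrin, which ties the plasma membrane to the actin cortex, and it had 5 of the regions, all within its introns by midpoint. Their E545K peaks were 6220, 4667, 5064, 7096 and 8206 bp wide over 2, 3, 3, 5 and 3 WT peaks. The WT peaks covered 1826, 3868, 4339, 5712 and 7807 bp there, and H1047R 5253, 1456, 955, 1258 and 4862 bp. H1047R was thus the lowest list in 4 of the 5 and stood between WT and E545K at the region farthest from the start. Over the whole window of 47361 bp the coverage was 55.7% in WT, 83.3% in E545K and 41.3% in H1047R.

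CAV1, the coat protein of caveolae and a basal marker, also had 5 regions, all of weak peaks. E545K peaks of 5560, 3302, 2192, 2142 and 3133 bp stood over 4, 3, 2, 2 and 2 WT peaks, with E545K summits from 3.15 to 4.10. H1047R covered 363, 366, 0, 0 and 2586 bp. In the window of 38642 bp H1047R covered 11.4%, against 53.4% in WT and 73.7% in E545K. Over the 5 regions the peaks covered 10992 bp in WT, 16329 bp in E545K and 3315 bp in H1047R.

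EMP1, a membrane protein of epithelia, had 4 regions and a different H1047R state. WT covered 21.2% of the window of 36906 bp, E545K 76.1% and H1047R 66.0%. In the second region WT had 2 weak peaks of 297 and 805 bp, H1047R 5 peaks covering 6033 bp, and E545K 1 peak of 6972 bp. That ratio of E545K to WT bases, 6.33, was the highest of the 1615. The E545K summit there lay outside the WT peaks, so the EMP1 summit sequence printed above comes from DNA not called in WT. The last region joined 3 WT peaks across 2519 bp in both knock-in lists, as peaks of 7369 bp in E545K and 7668 bp in H1047R.

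ANXA2, a calcium-dependent membrane-binding protein, had 4 intronic regions. WT covered 1987, 8245, 2642 and 3737 bp, E545K 3542, 8934, 5384 and 4778 bp and H1047R 1302, 6813, 1234 and 2959 bp. H1047R was lowest in all 4. ITGB6, an epithelial integrin subunit, had 5 regions in which H1047R covered more bases than WT. WT covered 2790, 821, 1229, 2432 and 1480 bp, E545K 4413, 1361, 1545, 2962 and 1591 bp and H1047R 6786, 949, 1932, 2872 and 1596 bp, and H1047R had a single peak in 4 of the 5. HS6ST1, which sulfates heparan sulfate chains, had 4 regions with E545K peaks of 1092 to 4282 bp. No region near these 6 genes showed the reverse pattern, but only 5.16% of all genes with a region had a reverse region. The genes were chosen for their number of members, so this is description.

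**Figure D3:**
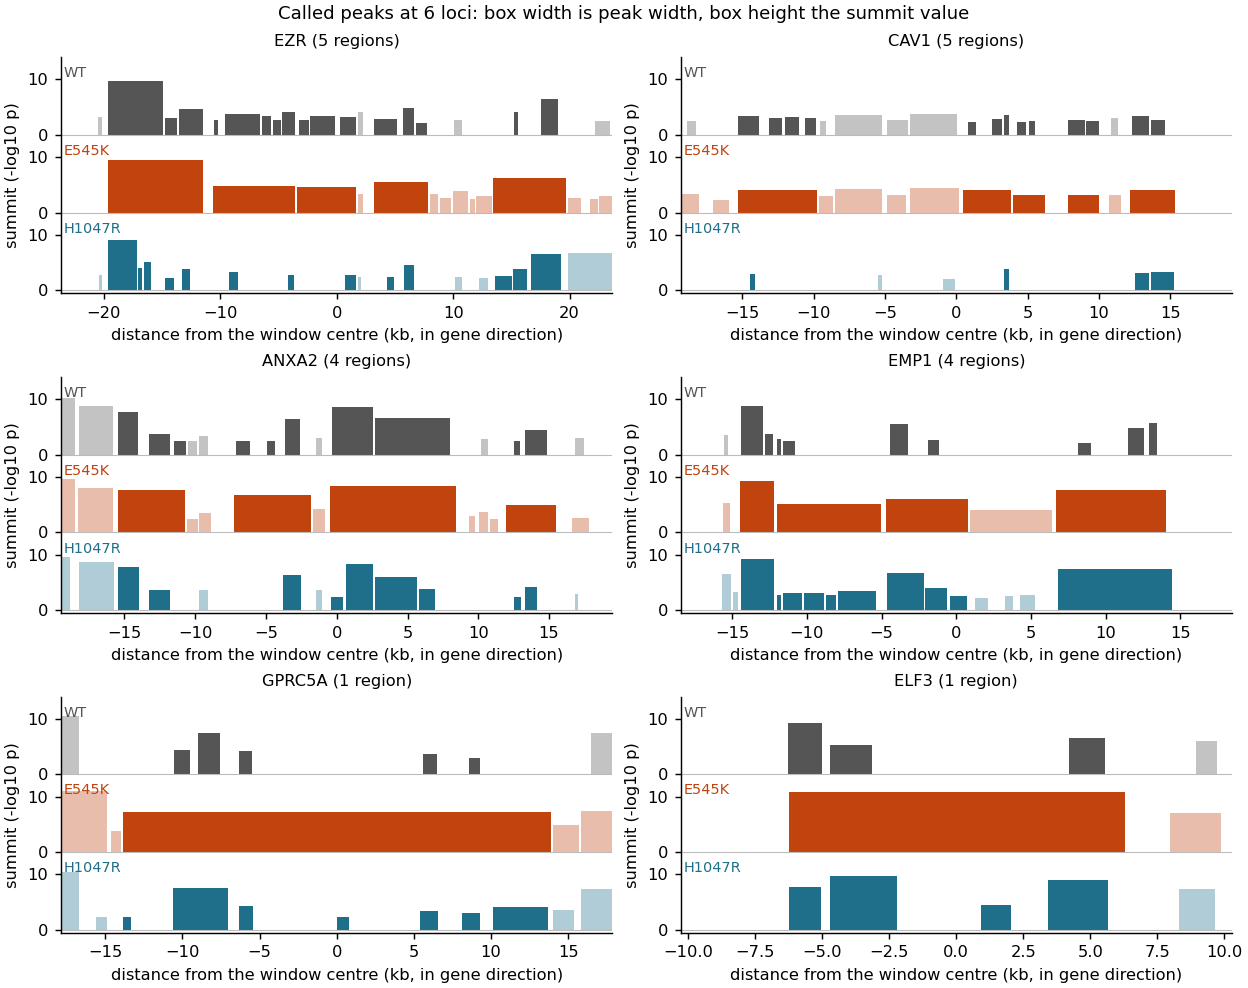
Called peaks of WT, E545K and H1047R cells at 6 loci, with distance from the window centre (kb, in gene direction) across and the summit value (−log10 p) as box height. Dark boxes lie in the chosen regions and pale boxes do not; the single E545K box at GPRC5A spans 27722 bp, where WT had 5 boxes.

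Other members with many WT peaks were wide. The E545K peak at ITPKC, a kinase of inositol trisphosphate, measured 31047 bp over 6 WT peaks (20430 bp) and 6 H1047R peaks (24760 bp). LAMB3, the beta chain of laminin-332, had 6 WT peaks (16763 bp) in 1 E545K peak of 17636 bp. The TRIM11 region, near a gene for a RING-type ubiquitin ligase, also had 6 WT peaks, 11244 bp against 16030 bp in E545K. MUC1, a surface mucin, had 5 WT peaks (8406 bp), 1 E545K peak of 12202 bp and 1 H1047R peak of 4036 bp. Only 1 of these WT peaks was strong, with an area of 16932. The others were near the smallest area in the list, 200, with areas of 201.1 to 313.9 and summits of 1.95 to 2.34. CD9, a tetraspanin, had 5 WT peaks (5586 bp) and 8960 bp in E545K.

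Among the largest by E545K area, several were already wide in WT. KRT16, a keratin of activated keratinocytes, went from 15695 to 18985 bp (bases covered in WT and then in E545K, here and below) across a gap of 2674 bp. Such bases are favoured by the rule and are not a claim of more signal. At KRT16 the summed area was 73615 in WT and 60191 in E545K, and the highest summit 12.1 and 10.1. DUSP1, a phosphatase of MAP kinases, went from 13706 to 13929 bp. Its areas were 63739 and 57139 and its summits 12.7 and 11.3. Over the 1615 regions the E545K area was above the summed WT area in 968 (59.9%). A region upstream of PPARA, a fatty-acid-sensing nuclear receptor, went from 25274 to 28295 bp with 24532 bp in H1047R. At promoters the largest were IRF2BP2, a corepressor (7867 to 8239 bp), DYNLT4, a dynein light chain (12665 to 14452 bp), RAP2B, a small GTPase (4916 to 5454 bp), and SCX, the tendon factor scleraxis (15849 to 22692 bp).

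Where H1047R had no peak, the largest members were at FOSL2, an AP-1 subunit (3218 bp in WT, 5812 in E545K), SLC20A2, a phosphate transporter (1774 and 4012 bp), YWHAZ, a 14-3-3 protein (3225 and 3462 bp), and a second region upstream of PPARA (4711 and 5219 bp). All 4 had E545K summits between 3.08 and 3.94. FASN, the fatty acid synthase, and TPM4, a tropomyosin, were large regions of which H1047R peaks covered little. FASN had 19035 bp in WT, 21559 in E545K and 2985 in H1047R, and TPM4 had 18697, 20321 and 1416 bp.

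By position, 405 of the 1615 regions had their midpoint within 1 kb of a protein-coding start (25.1%, 23.02 to 27.3), beside 14.1% of regions with WT and E545K peaks and 9.67% of all regions. The reverse regions were close to the same share, 23.2% (20.8 to 25.8). Another 647 were intronic, 71 exonic and 492 intergenic. Width went with this share. Among regions with over 1000 and up to 2000 bp of WT peak, 28.2% of the set and 42.6% of all with both were at promoters, and for over 2000 and up to 4000 bp the shares were 38.7% and 60.1%. Over 4000 bp they were 16.6% and 23.9%, and up to 1000 bp 5.87% and 4.24%. The set thus had a higher promoter share than shared regions as a whole, and a lower one than shared regions of its width in the 3 wider classes.

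**Figure D4:**
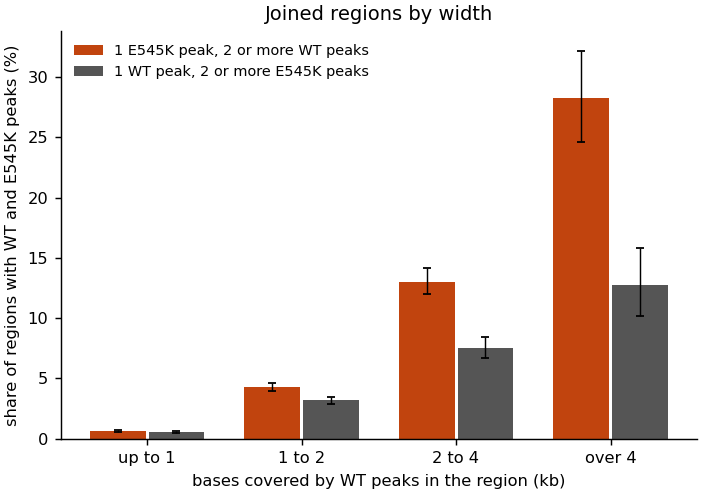
Share of regions with WT and E545K peaks (%) that held 1 E545K and 2 or more WT peaks, and the reverse, in 4 classes of bases covered by WT peaks (kb), with 95% Wilson intervals. The set made up 0.645% of the narrowest class and 28.2% of the widest, and the reverse 0.538% and 12.7%. Members sum 2 or more WT peaks by rule, which favours the wider classes.

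The share was higher among wider regions, from 0.645% of shared regions with up to 1000 bp of WT peak to 28.2% (24.6 to 32.2) of those with over 4000 bp. The reverse pattern made up 0.538% and 12.7% (10.2 to 15.8) of these classes. Across chromosomes the share of members ran from 0.697% (13 regions) on chromosome 13 to 3.01% (76 regions) on chromosome 19. Chromosome 13 had more reverse regions, 33, than members. The last full 5 Mb window of chromosome 8, from 140000001 to 145000000, held 35 members among 353 shared regions (9.92%) and 7 reverse regions. It held 3 of the 6 longest crossed gaps, at PTP4A3, a phosphatase (7801 bp), OPLAH, the 5-oxoprolinase (6245 bp), and SCRIB, a cell polarity scaffold (5991 bp). High shares were not limited to it. The window of chromosome 14 from 105000001 had 9 members among 85 (10.6%). Windows of chromosome 9 from 135000001, chromosome 20 from 60000001 and chromosome 19 from 1 had 7.74%, 6.81% and 6.38%. Without chromosome 8 and the short arm of chromosome 5 the set had 1520 regions and the reverse 1034.

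A protein-coding start lay within 100 kb of 1360 members, which touched 1186 of the 16878 genes with any region (7.03%), while reverse regions touched 5.16%. Nearest start is a label and not evidence of control. Genes with many regions have more chances, so the counts below are read beside the number of regions. Over all genes 1360 of 87074 regions were members (1.56%).

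Cell junction genes had a member at 10 of 25 genes, in 16 of their 318 regions (5.03%), and the reverse at 3 genes. CLDN4, a tight junction claudin, went from 2754 bp in 2 WT peaks to 5072 bp in E545K and 3891 bp in H1047R. JUP, plakoglobin, went from 3225 to 3502 bp. The others were CTNNB1, DSC2, DSG2, F11R, GRHL2, GRHL3, PKP1 and PKP2, of catenin, desmosome, tight junction and grainyhead families. At GRHL3, a grainyhead factor of epithelial barriers, 3 WT peaks of 2709 bp lay in an E545K peak of 4863 bp that crossed a gap of 1540 bp.

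Focal adhesion and actin genes had a member at 8 of 25 (3.07% of their regions) and the reverse at 5. By region these were 14 members and 10 reverse regions. TPM4 above and ACTN4, an alpha-actinin, were the largest (ACTN4 4990 bp in WT, 6144 in E545K, 3821 in H1047R). Luminal markers had 5 of 21 (4.48% of regions), KRT7, KRT8, CLDN4, ELF3 and MUC1, and the reverse at 0. KRT7, a simple-epithelium keratin, went from 19391 to 21036 bp. Basal markers had 5 of 24 (3.46% of regions), CAV1, COL17A1, KRT15, KRT16 and LAMB3, and the reverse at 5. Members thus stood near both luminal and basal genes. At KRT15, 3 WT peaks of 3662 bp lay in 1 E545K peak of 10812 bp, with 6035 bp in H1047R.

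Sterol and fatty acid genes had 7 of 19 (4.55% of regions), with FASN above as the largest, and the reverse at 2. HMGCS1 and LSS, enzymes of sterol synthesis, were among the regions tied only by an H1047R peak, with E545K peaks of 529 bp against 3507 bp of WT, and 548 bp against 1042 bp. ERBB receptors and ligands had 5 of 14 (3.70% of regions), EPGN, ERBB4, EREG, HBEGF and NRG2, and the reverse at 1, EGFR. EREG, an EGF-family ligand, went from 1258 to 1372 bp and NRG2, a neuregulin, from 1855 to 2180 bp.

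PI3K-AKT-mTOR genes had 2 of 33 (6.06%, beside 7.03% of all genes), in 0.781% of their regions, and the reverse at 3, which included PIK3CA. IGF1R, a receptor upstream of PI3K, went from 5174 to 5260 bp and PHLPP1, a phosphatase of AKT, from 3001 to 3120 bp. The E545K area was the lower at both, with 10071 against 11289 and 8917 against 9613. FOXO factors and targets had 4 of 19 (reverse 6), in 1.42% of their regions, close to the 1.56% over all genes. TXNIP, which restrains glucose uptake, had 2 WT peaks of 889 and 1535 bp, 1 H1047R peak of 1533 bp over the start, and an E545K peak of 3966 bp that crossed 1089 bp of the gene. TRIB1, a pseudokinase, went from 5891 to 7695 bp across 1024 bp. EGF-MAPK early genes had 5 of 28 (2.26% of regions, reverse 9), with DUSP1 above and DUSP4, where E545K covered 5193 bp and WT 5548.

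TGF-beta and WNT genes had 7 of 37 (2.005% of regions, reverse 6), with SMAD3, a TGF-beta transducer (2083 to 3144 bp, 3161 in H1047R), and the ligand BMP2 (1322 to 2151 bp). YAP and TEAD targets had 3 of 17 (2.70% of regions, reverse 4). Among them were CCN1, a matrix protein (6193 to 6520 bp), and F3, tissue factor. The CCN1 area was 23247 in WT and 19975 in E545K. p53 targets had 2 of 22 (1.81% of regions, reverse 0), the cell cycle inhibitor CDKN1A (4011 to 4196 bp) and the kinase PLK2 (3716 to 5228 bp). Glycolysis and hypoxia genes had 4 of 29 (3.04% of regions, reverse 5), with ENO1, an enolase, and NDRG1, a hypoxia-induced gene, as the largest. NF-kB and inflammation genes had 4 of 26 (1.64% of regions, reverse 4), with NFKB2 (2896 to 3894 bp) and TNFAIP2 (3401 to 3597 bp). Epithelial-mesenchymal transition genes had 2 of 18 (1.73% of regions, reverse 3), with SPARC, a matrix protein, among them. Keratinocyte differentiation genes had 1 of 24 (1.56% of regions, reverse 3), PPL. Housekeeping genes had 4 of 22 (reverse 1), in 4.76% of their regions, a share near that of cell junction genes. ACTB and YWHAZ were the largest. Immune markers had 0 of 15 (reverse 0), and neural and endothelial markers 1 of 20 (0.694% of regions, reverse 0), MAP2.

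The crossed gaps were unlike the peaks beside them in sequence. Within 50 bp of the gap centre, AP-1, the site of FOS and JUN dimers, matched in 35 of 1611 crossed gaps (2.17%, 1.57 to 3.01) and in 2.45% (2.15 to 2.78) of the 9284 WT gaps up to 1000 bp that E545K did not cross. It matched at 19.3% (18.0 to 20.7) of the WT summits in the regions, against 27.1% of all WT summits. At E545K summits the shares were 19.3% in the regions and 25.03% in the whole list. The GC box, a site of SP factors, went the other way, with 7.42% of WT summits in the regions and 4.35% of all. It matched in 2.17% of crossed and 0.549% (0.418 to 0.721) of uncrossed gaps. Crossed gaps had a median length of 155 bp, while 5958 of the 9284 uncrossed gaps were over 300 bp. Motif shares were not split by gap length or by promoter. TEAD, RUNX and forkhead matches were each in under 2% of crossed gaps.

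**Figure D5:**
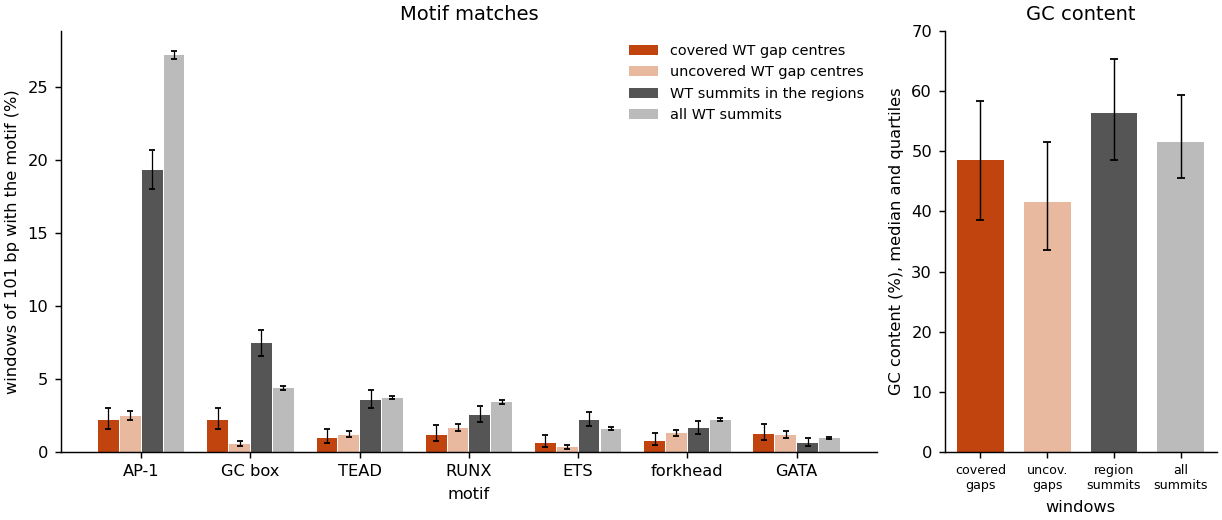
Left, share of windows reaching 50 bp to each side (%) with a match to 7 motifs, with 95% Wilson intervals; right, median GC content (%) with quartiles. AP-1 matched in 2.17% of crossed gap centres and 19.3% of WT summits in the regions, and crossed gaps had a median GC of 48.5% against 41.6% for uncrossed gaps.

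Base composition also differed between these windows. Median GC was 48.5% (quartiles 38.6 to 58.4) in crossed gaps, 41.6% (33.7 to 51.5) in uncrossed gaps, 56.4% at WT summits in the regions and 51.5% at all WT summits. Among gaps up to 150 bp the medians were 44.6% for those that E545K crossed and 37.6% for the rest. For E545K gaps of that length the median was 40.6% both for those that a WT peak crossed and for those it did not. For longer E545K gaps the crossed ones were again the richer in GC, with 43.6% against 38.6% over 150 and up to 300 bp and 50.5% against 45.5% over 300 and up to 1000 bp. The part of GC content in the joins was not tested.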

How the data were processed

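Peak lists for 3 genotypes, each from 2 samples pooled by the authors, were analysed. Per the submitters' processing notes, reads were handled with Trim Galore 0.4.0, cutadapt, FastQC and SAMtools, peaks were called with Genrich 0.6.1, and the build was hg38. For the aligner, a name was not given in the sources used here. As deposited, each peak carries a score and an area (a second score) from the authors' caller, a −log10 p of its summit and the summit offset. The deposited column for adjusted values was empty. All 295073 peaks lay within the chromosome lengths of the reference.

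Peaks were merged where they touched with Python 3.11.15, numpy 2.4.6 and pandas 2.3.3, and figures used matplotlib 3.10.9. Merging with bedtools 2.31.1 gave the same 120615 regions and 1615 members. Tested on simulated data, 500 of 500 planted joins and no others were found among 98910 peaks, and 0 of 500 planted motifs were missed. Midpoints were placed with 19111 protein-coding gene models of GENCODE 44, as promoter (within 1 kb of the canonical start), exon, intron or intergenic, and each region took the nearest start within 100 kb.

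Named regions were the 6 with the most WT peaks, the 6 with the largest E545K area, the 6 with the longest crossed gap, the 4 largest at promoters, without H1047R peaks and with 2 or more, those of the 6 genes with the most regions, and up to 2 genes per list of 19 lists. Other genes were named after their values were seen. A few regions taken by this rule are not reported here. Members and lists were chosen with earlier results of these data known. Alternatives covered peak thresholds, list length, merging, promoter and gene distances, gap limits, windows and loci.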

Additional observations from a re-analysis of the deposited data

How the results depend on the processing

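Of 77 recomputed values, 48 stayed within their counting interval, or within 1.5 times for a count, and 29 moved. The excess over the reverse count held in every setting run. No paired analysis was possible because each list pools both samples of a genotype, and for the same reason leaving out a sample could not be run. Depth is unknown, and its part in the joins was not tested.

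With a minimum area of 400 there were 984 regions and 576 reverse regions, the median E545K width was 2420 bp over 2046 bp of WT peak, and E545K crossed 16.6% of WT gaps up to 1000 bp and 2.36% of those over 500 and up to 2000 bp. With a minimum summit value of 3, a single H1047R peak stood in 60.3% of regions, E545K crossed 14.2% of WT gaps (H1047R 14.9%) and 1.61% of the long ones, and WT crossed 10.5% of E545K gaps. Lists of equal length gave medians of 2192 and 1787 bp, and merging without the H1047R list 2194 and 1760 bp. When the E545K peak itself had to overlap 2 WT peaks, the median width was 2183 bp and a single H1047R peak stood in 53.3%. In each of these cases the cause was not tested.

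Limits on gap length moved the shares by construction. Up to 500 bp they were 23.6% (E545K), 23.4% (H1047R) and 15.6% (WT over E545K gaps), and up to 2000 bp 9.75%, 9.01% and 6.27%. Promoter shares were 17.0% within 500 bp, 31.7% within 2000 bp and 34.4% for any overlap. The share of genes was 6.36% within 50 kb and 7.67% within 250 kb. Motif windows reaching 100 bp to each side matched AP-1 at 4.10% of crossed gaps and 24.6% of WT summits. The settings for gaps over 500 and up to 2000 bp were chosen after seeing the data.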
